A study of Mus musculus with 9 samples.

Results

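The 34 genes described here carry a cell through G2 and mitosis, and their levels were compared between thymocytes of CD3ε I173A and wild-type (WT) mice in 3 sorted populations. The genes were chosen by name, and all 34 were present among the 31053 genes of each of the 3 RNA libraries. They comprise the cyclins Ccna2, Ccnb1 and Ccnb2 with Cdk1, Cdkn3 and the entry kinases Plk1, Aurka and Mastl. Cdc20, Ube2c, Bub1, Bub1b, Sgo1 and Cdca3 act in or beside the spindle checkpoint and the protein destruction that ends mitosis. Aurkb, Birc5 and Cdca8 belong to the chromosomal passenger complex, Cenpa, Cenpe, Cenpf, Ndc80, Nuf2 and Knstrn to the centromere and kinetochore, and Top2a and Mki67 to the structure of the chromosome. Tpx2, Kif11, Kif14, Kif20a, Kif23, Nusap1, Hmmr and Ckap2l work on the spindle and midbody, and Anln acts in cytokinesis.

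The I173A group held thymocytes whose CD3ε, an invariant signalling chain of the T cell receptor (TCR) complex, carries the I173A substitution, and the WT group held thymocytes without it. Both came from the thymus of adult female mice. Suspensions were labelled with oligonucleotide-tagged antibodies, hashtag 6 (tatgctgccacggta) for I173A and hashtag 4 (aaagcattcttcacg) for WT, shown because these 15-base tags alone separate the genotypes. That pairing of tag and genotype was read from the order in which the protocol names them, and every direction below rests on it. They were then sorted into double-positive (DP, CD4+CD8+), CD8 single-positive (CD8 SP) and CD4 single-positive (CD4 SP) cells, and the genotypes of a gate were run in 1 library with the 10x Genomics 5′ kit. The labels do not say how many mice gave each suspension, so a genotype is 1 sample per gate and no difference below has a replicate check. All intervals are exact 95% intervals and cover counting error only.

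Transcripts of this set are made late in the cell cycle. In cells outside it the genes are held down by the DREAM complex, and in G2 the complexes that contain B-MYB and FOXM1 switch them on, in part through a promoter element called the cell cycle genes homology region and through CCAAT boxes bound by NF-Y. In the thymus most division takes place before and as cells become DP, after the β chain of the TCR has been made. Resting DP cells then rearrange the α chain and are selected, and new single-positive cells divide little.

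The DP gate had 2706 I173A and 2516 WT cells with 8659807 and 10119851 unique molecular identifiers (UMIs). The CD8 SP gate had 2872 I173A and 3017 WT cells with 17634074 and 22544044 UMIs, and the CD4 SP gate 2664 and 3109 cells with 16766444 and 20534690 UMIs. Barcodes with several hashtags (6.27% of the DP library, 5.48% of CD8 SP and 4.24% of CD4 SP) were left out, which does not remove doublets of 1 genotype. Pairs of libraries shared 109 to 124 barcode sequences. Marker genes were read for each gate. Zbtb7b commits thymocytes to the CD4 fate. It had 97.1 CPM (UMIs per 1000000 of the group) in I173A and 108 CPM in WT of the CD4 SP gate. Elsewhere it had at most 1.68 CPM. Rag1, a recombinase of DP cells, was at 1232 and 1049 CPM in the DP gate. In the CD8 SP gate Cd8a was at 1077 CPM in I173A and 1102 CPM in WT, and Cd4 at 0.964 and 3.99 CPM. That gate also held immature cells, which are given apart below. Over the DP gate, 7 genes of B cells summed to 442 CPM in I173A and 441 CPM in WT. Of these, 1 was at 0 in I173A and 4 in WT. The 10 of myeloid and dendritic cells summed to 192 CPM in I173A and 192 CPM in WT, with 1 and 2 at 0. Those of natural killer and γδ T cells summed to 25.9 and 45.1 CPM, with 4 of the 7 at 0 in each genotype. With genes at 0 in each list, the sums do not show how many such cells there were. The part of such cells in the results was not tested.

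The promoters show how alike the genes are as a set. Of the 34, 30 had an entry in the RefSeq promoter table for GRCm38.p6, and the 250 bases before the annotated start were searched on both strands. CCAAT was in 23 of 30 (76.7%), against 33.8% of all 32851 promoters, and 2 or more copies were in 16 of 30 (53.3%, against 10.1%). TTTGAA or TTCGAA, the usual letters of the cell cycle genes homology region, were in 11 of 30 (36.7%, against 17.1%), each time with a CCAAT in the same window (36.7%, against 6.02% of all promoters). TTTAAA, a variant of the element, was in 6 of 30 (20%, against 12.1%), and GGGCGG, the usual Sp1 letters, in 19 of 30 (63.3%, against 32.7%). The E2F letters TTTGGCGC and TTTCGCGC were in 0 and 1 of 30 (0.417% and 0.256% of all promoters). No match says only that the letters are not in this window.

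The promoters of 5 genes are printed, each 5′ to 3′ toward its gene. Capitals stand where a CCAAT box or a usual spelling of the homology region lies on either strand. A box on the other strand reads ATTGG. The variant of the element was not put in capitals, and the Cenpa window holds it in small letters. Ube2c, Cdk1 and Mki67 are shown as examples of genes with few UMIs outside cycling cells in the CD4 SP gate. Kif23 and Cenpa had the largest shares there. Other genes had shares as small as the first 3. Nuf2 had 0% in I173A and 1.71% in WT, and Nusap1 1.81% and 1.53%. Ube2c had 4.55% and 1.15%, Cdk1 0.403% and 1.82%, and Mki67 3.58% and 1.65%. The 5 do not stand for a rule. A CCAAT box and both usual spellings were absent in 7 members (Anln, Birc5, Knstrn, Ndc80, Nuf2, Nusap1 and Sgo1). Of these, Birc5 did hold the variant of the element. Each of the 7 still had most of its UMIs in G2/M-high cells of the CD4 SP gate in both genotypes. Their shares ran from 54.8% for Knstrn in WT to 100% for Nuf2 in I173A.
Ube2c (chr2:164769679-164769928, plus strand): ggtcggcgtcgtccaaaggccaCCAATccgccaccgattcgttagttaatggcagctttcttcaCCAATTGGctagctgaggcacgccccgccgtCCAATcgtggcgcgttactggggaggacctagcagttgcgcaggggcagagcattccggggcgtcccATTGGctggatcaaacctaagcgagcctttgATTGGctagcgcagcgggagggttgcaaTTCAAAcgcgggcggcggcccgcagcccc
Cdk1 (chr10:69352913-69353162, minus strand): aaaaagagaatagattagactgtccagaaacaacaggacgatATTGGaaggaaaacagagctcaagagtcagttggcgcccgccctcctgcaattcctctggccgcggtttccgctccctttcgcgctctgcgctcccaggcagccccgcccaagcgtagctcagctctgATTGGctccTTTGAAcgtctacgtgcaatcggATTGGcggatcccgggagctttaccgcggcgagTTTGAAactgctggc
Mki67 (chr7:135716380-135716629, minus strand): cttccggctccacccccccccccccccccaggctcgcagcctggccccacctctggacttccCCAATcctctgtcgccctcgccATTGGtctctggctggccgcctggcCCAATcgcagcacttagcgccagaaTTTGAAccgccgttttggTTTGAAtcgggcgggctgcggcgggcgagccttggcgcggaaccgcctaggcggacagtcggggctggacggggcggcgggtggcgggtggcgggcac
Kif23 (chr9:61946800-61947049, minus strand): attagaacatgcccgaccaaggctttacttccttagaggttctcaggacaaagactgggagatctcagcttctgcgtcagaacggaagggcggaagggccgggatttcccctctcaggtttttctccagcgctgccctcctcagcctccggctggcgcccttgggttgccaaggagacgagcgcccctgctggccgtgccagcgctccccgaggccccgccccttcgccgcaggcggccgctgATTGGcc
Cenpa (chr5:30666636-30666885, plus strand): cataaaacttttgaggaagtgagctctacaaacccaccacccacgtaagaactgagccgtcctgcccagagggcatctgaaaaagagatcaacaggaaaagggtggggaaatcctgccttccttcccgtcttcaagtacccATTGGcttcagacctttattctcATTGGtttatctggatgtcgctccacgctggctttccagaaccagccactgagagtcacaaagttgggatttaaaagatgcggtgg
Ube2c held 6 CCAAT and 1 TTTGAA, Cdk1 and Mki67 3 CCAAT and 2 TTTGAA each, Cenpa 2 CCAAT and Kif23 1, with neither TTTGAA nor TTCGAA in the Cenpa and Kif23 windows.

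In DP thymocytes all 34 genes were lower in I173A. Together they made up 2187 CPM in I173A and 5737 CPM in WT, a ratio of 0.381 (0.375 to 0.388). Each of the 34 was lower past 1.5-fold, which 5.48% of the 9448 genes with a mean of 5 CPM or more were, and none was higher past 1.5-fold (3.91% of genes). Their median log2 ratio was −1.36, against 0.08 over all those genes. The ratios lay close together, between 0.293 for Bub1, a checkpoint kinase, and 0.509 for Kif23, a midbody motor.

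In the CD8 SP gate, which held immature as well as mature cells, the genes were again lower in I173A, by less. They summed to 1648 CPM in I173A and 2724 CPM in WT, a ratio of 0.605 (0.597 to 0.614). Of the 34, 29 were lower past 1.5-fold, against 4.83% of 9123 genes, and none was higher past 1.5-fold (1.39% of genes). The median log2 ratio was −0.75, against 0.03 over all genes. The 5 that stayed within 1.5-fold were Cenpa, Cdkn3, Kif23, Knstrn and Kif14. Markers of immature thymocytes moved with this gate: the list of 10 summed to 1793 CPM in I173A and 2027 CPM in WT, Rag1 in it to 7.49 and 26.7 CPM, and the 10 mature genes to 7523 and 5931 CPM. Most of the immature sum was Cd8b1, which cells of this gate express in any case, at 1579 CPM in I173A and 1434 CPM in WT. The sum therefore understates how much lower the rest of that list was in I173A. The 10 myeloid and dendritic genes summed to 213 CPM in I173A and 109 CPM in WT there, with 1 and 2 of them at 0. The part of these cells in the whole-gate values was not tested for the myeloid list, while the immature and mature cells are given apart below.

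In CD4 SP thymocytes the genes were low in both genotypes and differed little. They summed to 611 CPM in I173A and 656 CPM in WT, a ratio of 0.932 (0.908 to 0.956). Of the 34, 27 had a mean of 5 CPM or more. None of these was lower past 1.5-fold (0.325% of 9243 genes) and none higher (0.811% of genes). Of the 34, 28 had a ratio below 1, and the 6 above it were Cenpa, Kif23, Plk1, Ndc80, Hmmr and Ckap2l, at 1.03 to 1.13. The median log2 ratio over the 34 was −0.14, against 0.04 over all genes. Without the 1% of cells with the most UMIs, which include many dividing cells, the CD4 SP ratio was 0.792 (0.764 to 0.822), and 5 genes, Cdk1, Ube2c, Knstrn, Kif11 and Nusap1, were lower past 1.5-fold, at 0.468 to 0.656 (0.489% of 9195 genes were).

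**Figure D1:**
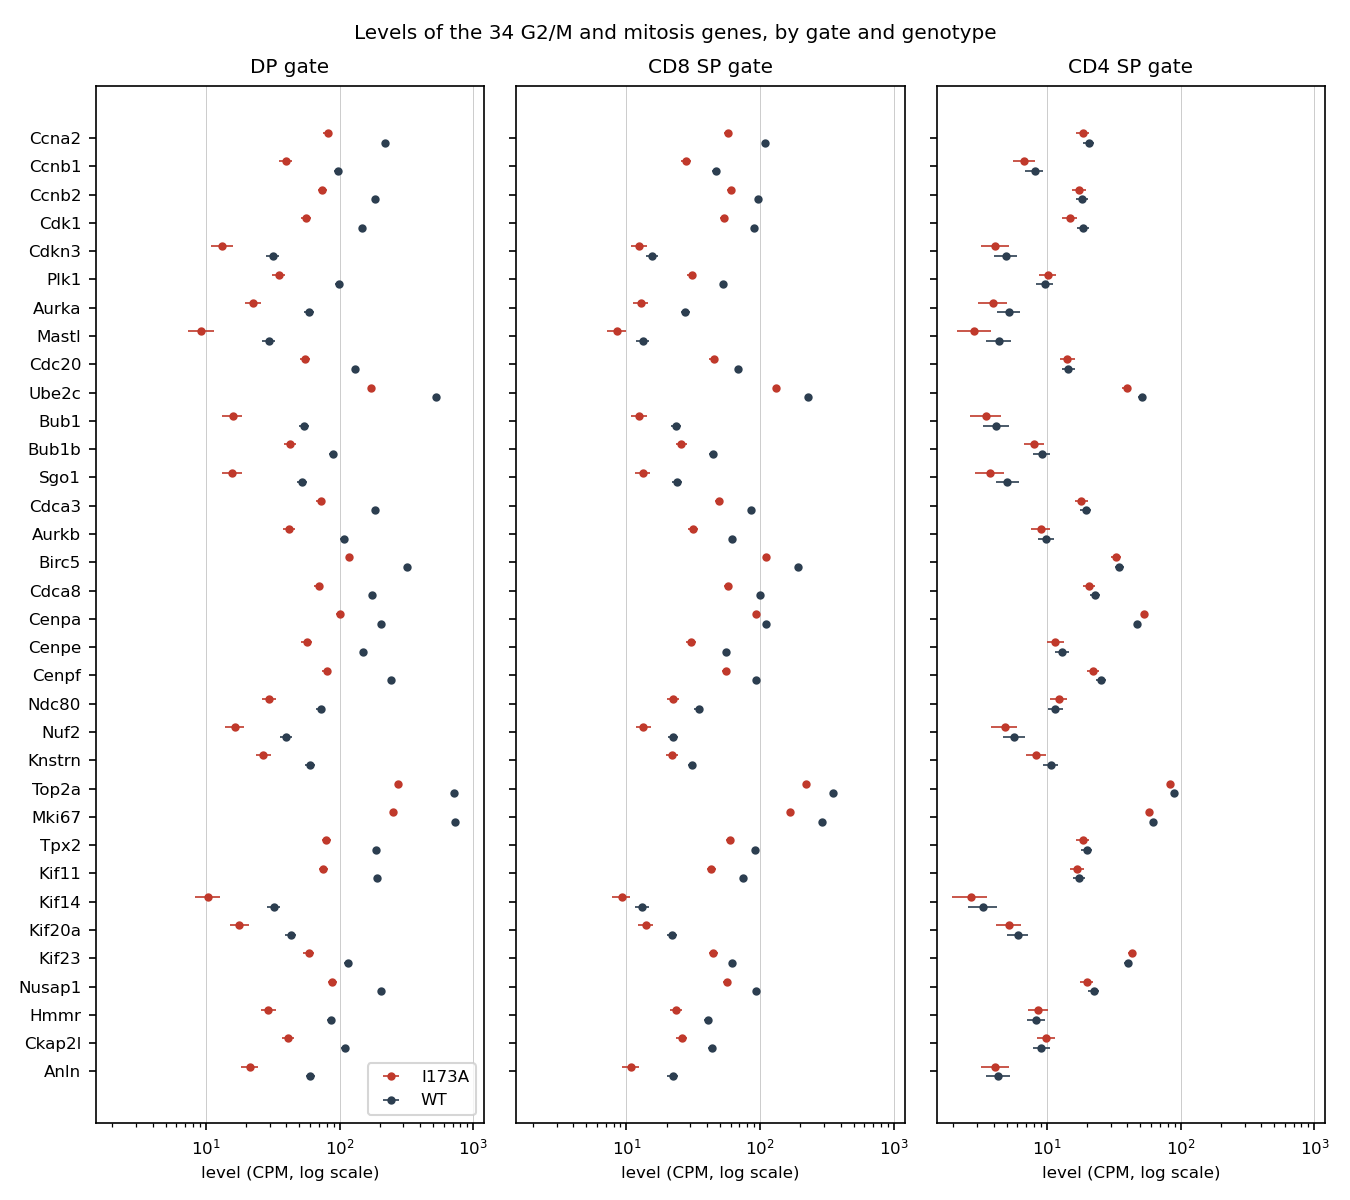
Level of each gene in CPM on a log scale in I173A (red, upper of each pair) and WT (dark blue), with exact 95% Poisson intervals, by gate. In the DP gate every I173A point lies left of its WT point, while in the CD4 SP gate the pairs lie close together and 6 genes, Cenpa and Kif23 among them, have the I173A point to the right.

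Among the cyclins, Cdk1 and the entry kinases, Ccna2, the cyclin of S phase and G2, was at 81.2 CPM in I173A and 218 CPM in WT in the DP gate (ratio 0.372, 0.341 to 0.405). In the CD8 SP gate it was at 57.2 and 109 CPM, and in the CD4 SP gate at 18.6 and 20.5 CPM. Ccnb1 and Ccnb2, the cyclins that activate Cdk1 at mitotic entry, had DP ratios of 0.410 and 0.408 and CD8 SP ratios of 0.596 and 0.625. The kinase Cdk1 itself was at 56.2 CPM in I173A and 146 CPM in WT in DP, at 53.7 and 90.4 CPM in CD8 SP cells, and at 14.8 and 18.7 CPM in CD4 SP (ratio 0.791, 0.672 to 0.930). Plk1, which triggers entry and centrosome maturation, had a DP ratio of 0.358, a CD8 SP ratio of 0.577 and a CD4 SP ratio of 1.05 (0.852 to 1.30). Aurka, the centrosome kinase, had the lowest ratio of all 34 genes in the CD8 SP gate, with 12.8 CPM in I173A and 27.5 CPM in WT (0.464, 0.397 to 0.541). Mastl, which restrains the phosphatase opposing Cdk1, was at 9.24 and 29.4 CPM in DP and had the lowest ratio in CD4 SP, 0.653 (0.450 to 0.937), from 48 UMIs in I173A and 90 in WT. Cdkn3, a phosphatase acting on Cdk1, was at 13.2 and 31.7 CPM in DP, and at 12.4 and 15.5 CPM in CD8 SP (0.802, 0.674 to 0.953).

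Among the genes of mitotic exit and the checkpoint, Ube2c, the ubiquitin-conjugating enzyme of the anaphase-promoting complex (APC/C), was the most abundant, with 171 CPM in I173A and 521 CPM in WT in DP (0.329, 0.311 to 0.349). It was at 132 and 227 CPM in CD8 SP and at 39.4 and 50.9 CPM in CD4 SP (0.773, 0.700 to 0.853). Cdc20, the activator of the APC/C, was at 55.2 and 130 CPM in DP, at 44.8 and 67.8 CPM in CD8 SP, and at 14.2 and 14.5 CPM in CD4 SP. Bub1 was at 15.8 CPM in I173A and 54.0 CPM in WT in DP, and Sgo1, which protects centromeric cohesion, at 15.6 and 52.4 CPM, the lowest ratios of that gate (0.293 and 0.298). Bub1b, an inhibitor of Cdc20, was nearer to WT, at 42.3 and 89.3 CPM (0.473, 0.418 to 0.535). In CD8 SP these checkpoint genes had ratios of 0.526 for Bub1, 0.554 for Sgo1 and 0.581 for Bub1b. Cdca3, which helps trigger mitotic entry through protein destruction, was at 72.3 and 183 CPM in DP and at 49.0 and 85.4 CPM in CD8 SP.

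The 3 genes of the chromosomal passenger complex had nearly equal ratios in each gate. In DP they ran from 0.373 to 0.397, in CD8 SP from 0.517 to 0.586 and in CD4 SP from 0.906 to 0.940. Birc5, the survivin subunit, was at 118 CPM in I173A and 316 CPM in WT in DP and at 111 and 190.2 CPM in CD8 SP, and the kinase Aurkb at 41.9 and 107 CPM in DP and at 31.6 and 61.3 CPM in CD8 SP. Cdca8, the borealin subunit, was at 69.7 and 176 CPM in DP and at 57.3 and 101 CPM in CD8 SP.

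Among the centromere and kinetochore genes, Cenpa, the histone H3 variant of centromeres, stood apart. It was at 101 CPM in I173A and 205 CPM in WT in DP (0.490, 0.453 to 0.531), and at 93.7 and 109.7 CPM in CD8 SP (0.854, 0.802 to 0.909). In CD4 SP it was higher in I173A, at 53.5 CPM against 47.5 CPM in WT (1.13, 1.03 to 1.23). Cenpf, a large kinetochore protein, was at 79.9 and 241 CPM in DP (0.331) and at 22.1 and 25.5 CPM in CD4 SP (0.865, 0.755 to 0.9898). Cenpe, a kinetochore motor, had a ratio of 0.383 in the DP gate, 0.548 in CD8 SP cells and 0.890 in CD4 SP cells. Ndc80 and Nuf2, which pair in the complex that holds microtubules, had DP ratios of 0.410 and 0.414. Knstrn, a kinetochore and spindle protein, had a DP ratio of 0.448, a CD8 SP ratio of 0.710 and a CD4 SP ratio of 0.783.

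The most abundant members were Top2a, the topoisomerase that untangles sister chromatids, and Mki67, which coats mitotic chromosomes. Top2a was at 272 CPM in I173A and 721 CPM in WT in DP, at 218 and 352 CPM in CD8 SP, and at 83.9 and 88.8 CPM in CD4 SP. Mki67 was at 249.5 and 732 CPM in DP (0.341, 0.325 to 0.358), at 166 and 288 CPM in CD8 SP, and at 58.3 and 61.9 CPM in CD4 SP. With every DP cell thinned to 1500 UMIs, an Mki67 UMI was found in 8.15% of I173A and 18.7% of WT cells (12.0% and 22.8% without thinning). In cells of the CD4 SP gate with both S1pr1 and Klf2, genes of thymocytes ready to leave, the thinned share was 2.01% (42 of 2092 cells, not divided by genotype). Their median was 6393 UMIs, against medians of 2750.5 and 2906.5 UMIs in the DP groups. Over the whole CD4 SP gate the thinned share was no higher, at 1.37% in I173A and 1.73% in WT. Cells with both genes in the CD8 SP gate were at 7.42% (165 of 2225), so S1pr1 and Klf2 did not mark a low share there.

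The spindle genes had DP ratios between 0.319 for Kif14, a midbody kinesin, and 0.509 for Kif23. Tpx2, the activator of Aurka, was at 79.3 CPM in I173A and 187 CPM in WT in DP, and Kif11, the motor that pushes spindle poles apart, at 75.6 and 190.1 CPM. Kif23 was at 58.5 and 115 CPM in DP (0.509, 0.457 to 0.565), at 44.7 and 61.9 CPM in CD8 SP (0.723, 0.662 to 0.790), and at 43.2 and 40.2 CPM in CD4 SP (1.08, 0.973 to 1.19). Kif20a, a motor of cytokinesis, was at 17.8 and 43.0 CPM in DP, Nusap1, a spindle microtubule binder, at 88.2 and 205 CPM, Hmmr, which binds spindle microtubules, at 29.3 and 85.7 CPM, and the spindle protein Ckap2l at 41.0 and 109 CPM. Anln, the scaffold of the cleavage furrow, was at 21.2 and 60.4 CPM in DP (0.352, 0.297 to 0.416) and at 10.8 and 22.1 CPM in CD8 SP (0.487, 0.410 to 0.576).

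**Figure D2:**
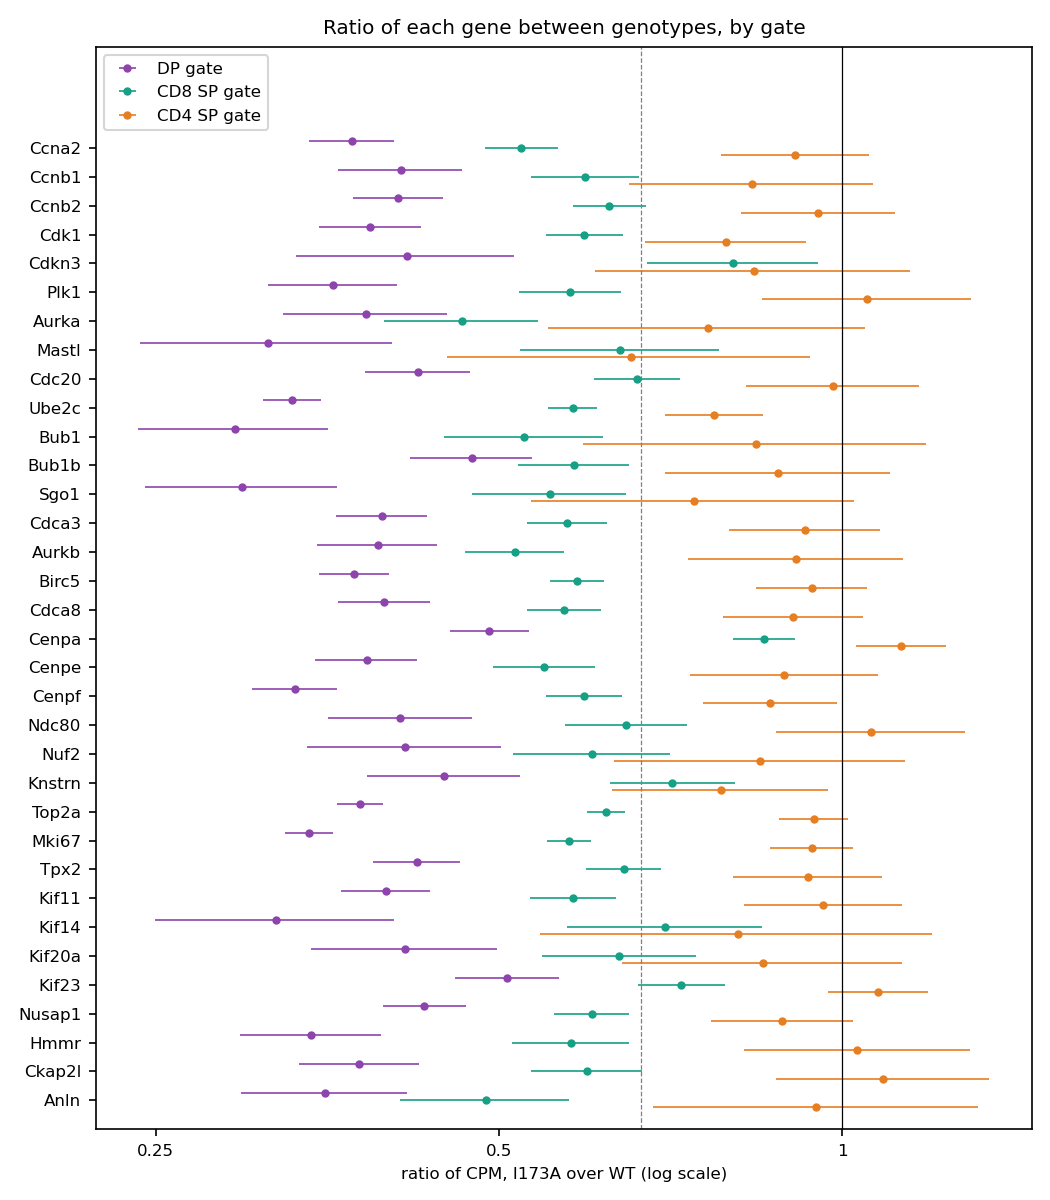
Ratio of CPM, I173A over WT, for each gene and gate on a log scale, with exact 95% intervals; the solid line is 1 and the dashed line the lower 1.5-fold threshold. DP ratios run from 0.293 to 0.509, CD8 SP ratios from 0.464 to 0.854 and CD4 SP ratios from 0.653 to 1.13.

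By its level, each of the 34 genes was highest in DP, lower in CD8 SP and lowest in CD4 SP in both genotypes. In I173A the median ratio was 1.29 for DP over CD8 SP and 2.90 for CD8 SP over CD4 SP, and in WT 2.06 and 4.54. The step between DP and CD8 SP was small for some genes in I173A, the lowest ratio being 1.05 for Cdk1 (0.937 to 1.17), against 1.61 in WT, and Cdkn3, Birc5, Cenpa and Mastl were among others with intervals that included 1. Between CD8 SP and CD4 SP the lowest in I173A was Kif23, at 1.03 (0.934 to 1.15), so these neighbours did not differ beyond counting error. A gate is 1 library, so gate and library cannot be told apart in this order.

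The genes were then placed among the cells with 65 other G2/M genes, none of them a member. Each cell was thinned to 1500 UMIs, and cells with a UMI from 3 or more of the 65 were called G2/M-high. Of the rest, cells with 3 or more of 56 S phase genes were called S-only and the remainder other cells. This left out 288 I173A and 310 WT cells in DP, 69 and 51 in CD8 SP, and 37 and 47 in CD4 SP, which had fewer UMIs. In DP the number of genes per cell formed a low mode and a broad second one from about 8 genes upward, so a threshold of 8 or more, chosen after the data were seen, is given beside the first. Of the DP cells with 3 or more genes, 239 of 367 in I173A and 191 of 535 in WT had only 3 or 4, so the wider class holds many cells near its boundary.

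**Figure D3:**
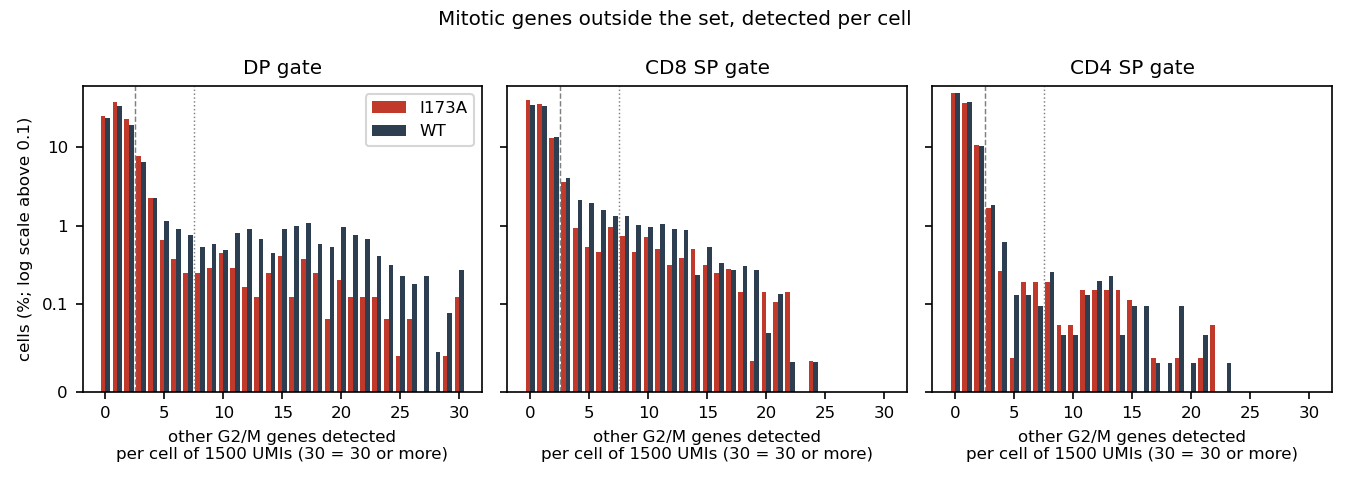
Percent of cells (log scale above 0.1, linear below) by the number of other G2/M genes detected after thinning to 1500 UMIs, for I173A (red) and WT (dark blue) in each gate; the dashed line marks 3 or more genes and the dotted line 8 or more. In the DP gate 97 I173A and 282 WT cells lie right of the dotted line.

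Most member UMIs lay in the cells with the other G2/M genes. Those cells were picked by genes of the same phase, so this was likely beforehand and does not test the name of the set. Among the DP cells placed in classes, 77.3% of the members' UMIs of I173A and 86.1% of WT came from cells with 8 or more of the other genes, which held 12.6% and 30.6% of all UMIs. In CD8 SP the shares were 74.9% and 70.5%, against 10.9% and 18.2% of all UMIs, and in CD4 SP 70.7% and 77.1%, against 3.61% and 4.09%.

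Fewer DP cells of I173A were G2/M-high, and the members' level within such cells was lower too. How the difference divides between share and level depended on the threshold. With 8 or more genes, 97 of 2418 I173A cells (4.01%, 3.26% to 4.87%) and 282 of 2206 WT cells (12.8%, 11.4% to 14.2%) were G2/M-high, a ratio of 0.314 (0.247 to 0.397). With 3 or more genes the shares were 15.2% in I173A and 24.3% in WT, a ratio of 0.626 (0.546 to 0.716), and the members' level within the class had a ratio of 0.647 (0.636 to 0.659). With 2 or more genes the ratio was 0.867 for the share and 0.466 for the level, and without thinning 0.883 and 0.454. Within the cells of 8 or more genes the members summed to 13720 CPM in I173A and 16651 CPM in WT, a ratio of 0.824 (0.809 to 0.839). There all 34 genes had a ratio below 1, from 0.569 for Bub1 to 0.991 for Bub1b, and 2, Bub1 and Sgo1, were lower past 1.5-fold (7.8% of 8992 genes were lower and 5.43% higher). The cells of this class had a median of 11136 UMIs in I173A and 8606.5 UMIs in WT, and 1.59% and 2.05% mitochondrial UMIs, and the part of that depth difference in the lower level was not tested. In the same cells 46 of the 56 S phase genes had a higher level in I173A (median log2 ratio 0.29). In the other cells of the DP gate the members summed to 454 CPM in I173A and 482 CPM in WT (0.941, 0.883 to 1.00).

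In CD8 SP the share was lower in I173A, and the direction of the level within the class depended on the threshold. With 8 or more genes, 143 of 2803 I173A cells (5.10%) and 249 of 2966 WT cells (8.40%) were G2/M-high, a ratio of 0.608 (0.491 to 0.749), and with 3 or more genes 11.6% and 19.5%. The level within the class had a ratio of 1.07 (1.05 to 1.08) with 3 or more genes, but 0.879 with 2 or more and 0.722 without thinning. Within the cells of 8 or more genes the members summed to 11329 CPM in I173A and 10544 CPM in WT, a ratio of 1.07 (1.06 to 1.09), and none was past 1.5-fold in either direction (6.26% of 8897 genes were lower and 9.73% higher). In CD4 SP 33 of 2627 I173A cells (1.26%) and 46 of 3062 WT cells (1.502%) were G2/M-high with 8 or more genes, a ratio of 0.836 (0.518 to 1.34), so a difference in share was not detectable at this depth. The members' level within them was 11984 CPM in I173A and 12374 CPM in WT (0.968, 0.940 to 0.998), with ratios from 0.713 for Ccnb1 to 1.23 for Ckap2l and 0 of 34 past 1.5-fold (11.2% of 9018 genes were lower and 13.3% higher).

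Among cells of 8 or more genes in the CD8 SP gate, those with immature genes were a smaller share in I173A, and those with mature genes a nearly equal share. Cells were divided by whether they had more UMIs from 9 genes of immature DP-stage thymocytes (Rag1, Rag2 and Ptcra among them, with Cd8b1 left out) or from 10 genes of mature single-positive thymocytes (Klf2, S1pr1 and Il7r among them), and 0 I173A and 4 WT cells lay near the boundary. Immature cells of 8 or more genes were 29 of 2803 I173A cells (1.03%, 0.694% to 1.48%) and 125 of 2966 WT cells (4.21%, 3.52% to 5.00%), a ratio of 0.245 (0.158 to 0.370). Mature cells were 114 (4.07%, 3.37% to 4.87%) and 124 (4.18%, 3.49% to 4.96%), a ratio of 0.973 (0.748 to 1.26). Without the 1% of cells with the most UMIs the ratios were 0.248 and 0.973. With 3 or more genes the immature cells were 56 in I173A and 267 in WT (0.222, 0.163 to 0.297) and the mature ones 270 and 310 (0.922, 0.780 to 1.09). Cells of 5 to 7 genes were 10 and 90 among the immature (0.118, 0.0545 to 0.226) and 45 and 54 among the mature (0.882, 0.580 to 1.33). The difference between the stages was not tested. These shares are of all cells of the gate, and the number of its immature cells without G2/M genes is not given. Fewer immature cells and less division among them were therefore not told apart here. Rag1 over the whole gate was at 7.49 CPM in I173A and 26.7 CPM in WT. Of the DP gate's class, 96 of 97 I173A and 282 of 282 WT cells were immature, and in the CD4 SP gate 33 of 33 and 44 of 46 were mature. This division was made after the data were seen.

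**Figure D4:**
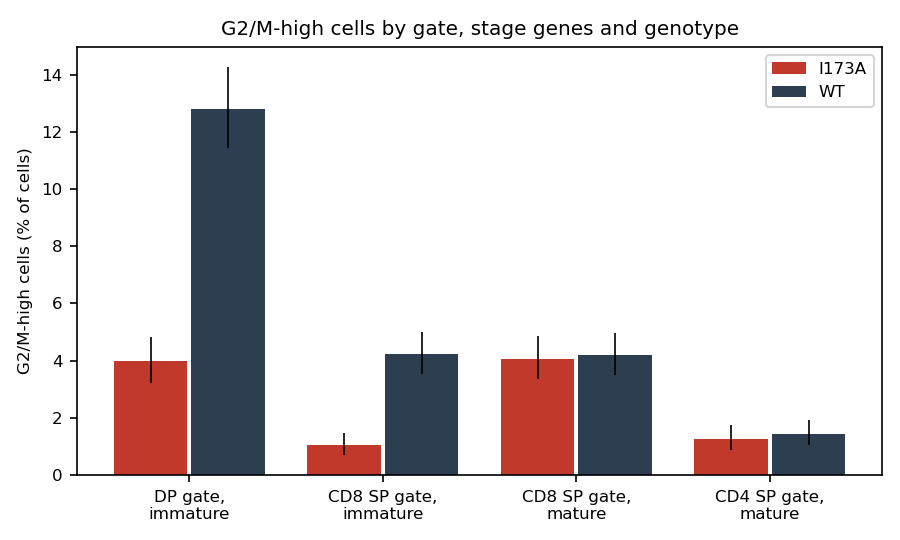
G2/M-high cells with 8 or more of the other G2/M genes as a percent of cells, by gate, stage genes and genotype (I173A red, left; WT dark blue, right), with exact 95% binomial intervals. The immature cells of the DP and CD8 SP gates are at 3.97% and 1.03% in I173A and at 12.8% and 4.21% in WT, while mature cells of the CD8 SP gate are at 4.07% and 4.18%.

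The TCR libraries, which the classes did not use, set the same cells apart. Among immature CD8 SP cells of 8 or more genes a productive α chain was found in 0 of 29 I173A cells, which allows a share of up to 10.3% by the rule of 3 counts (exact upper limit 11.9%), and in 4 of 125 WT cells (3.2%, 0.879% to 7.99%). A productive β chain was found in 27 of the 29 (93.1%) and 119 of the 125 (95.2%). Among the mature ones an α chain was found in 105 of 114 I173A cells (92.1%, 85.5% to 96.3%) and 118 of 124 WT cells (95.2%, 89.8% to 98.2%). DP cells of 8 or more genes had an α chain in 11.3% of I173A and 12.1% of WT cells, and those of 3 or more genes in 30.8% and 15.9%, against 40.2% and 36.3% of the other cells of that gate. A β chain also found in another cell of the same genotype and gate was seen, among DP cells of 8 or more genes, in 2 of 81 I173A cells with a β chain (2.47%, 0.300% to 8.64%) and 9 of 236 WT cells (3.81%, 1.76% to 7.12%), against 1.03% and 1.26% of the other DP cells. In the immature cells of the CD8 SP gate Cd4 was at 23.2 CPM in I173A and 18.9 CPM in WT and Cd8a at 607 and 685 CPM, while in the DP gate's class Cd4 was at 264 and 317 CPM.

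Within a stage of the CD8 SP gate the members were close to WT in mature cells and somewhat higher in I173A in immature cells. In mature cells of the class they summed to 11367 CPM in I173A and 11540 CPM in WT (0.985, 0.964 to 1.01), with ratios from 0.778 for Aurka to 1.37 for Kif14 and 0 of 34 past 1.5-fold (5.58% of 8746 genes were lower, 7.86% higher). In immature cells they summed to 11228 CPM in I173A and 9902 CPM in WT (1.13, 1.10 to 1.17), with Nuf2 and Cdkn3 higher past 1.5-fold, at 1.52 (1.11 to 2.05) and 1.56 (1.01 to 2.34), where 11.6% of 8648 genes were higher and 10.2% lower, and no member was lower past 1.5-fold. A cell of 8 or more genes held on average 149 member UMIs in I173A and 176 in WT in the DP gate's immature cells, 200.4 and 197 in the immature cells of the CD8 SP gate, 139.7 and 149.7 in the mature cells of the CD8 SP gate, and 219.5 and 229 in those of the CD4 SP gate.

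The genes did not follow one another evenly through the class. G2/M-high cells of 8 or more genes, both genotypes together, were divided into those with fewer than 8 of the S phase genes and those with 8 or more, so that the first hold cells further from S phase. Of the genes in DP cells, Cenpa was at 989 CPM in cells low in S phase genes and 322 CPM in cells high in them (3.07, 2.81 to 3.35). Cdkn3 (2.73), Cdc20 (2.71), Cenpf (2.59), Ube2c (2.42) and Ccnb1 (2.31) followed. Top2a was nearly even, at 2110 and 1940 CPM (1.09, 1.04 to 1.14), as were Mki67 (1.15), Bub1 (1.01) and Mastl (0.955). Cenpa, Cdkn3, Cdc20, Cenpf, Ube2c, Ccnb1, Knstrn and Ccnb2 led in the DP gate and had ratios of at least 2.03 in CD8 SP and 2.52 in CD4 SP. Among cells of the class, those high in S phase genes were 71.1% in I173A and 69.5% in WT in DP, 65.7% (57.3% to 73.5%) and 76.3% (70.5% to 81.4%) in CD8 SP, and 72.7% and 65.2% in CD4 SP.

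**Figure D5:**
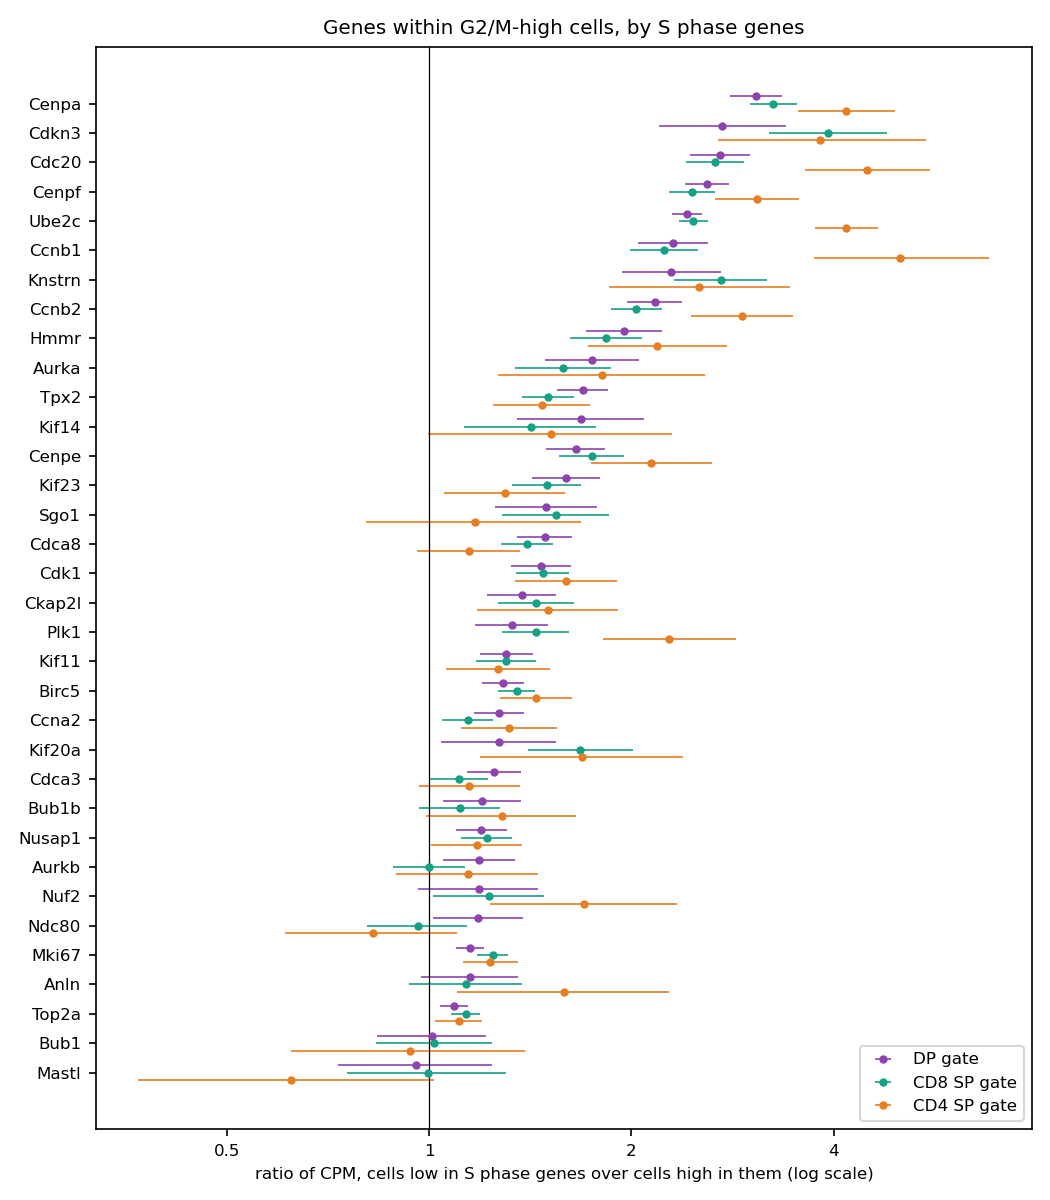
Ratio of CPM between G2/M-high cells with fewer than 8 S phase genes and those with 8 or more, on a log scale with exact 95% intervals, by gate, genotypes pooled and genes ordered by the DP ratio. Cenpa, Cdkn3 and Cdc20 lie at 2.71 to 3.07 in DP and Mastl, Bub1 and Top2a at 0.955 to 1.09.

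Some members were also found in cells that were neither G2/M-high nor S-only, Kif23 and Cenpa with the largest shares in the CD4 SP gate in both genotypes. In the CD4 SP gate 60.2% of Kif23 UMIs in I173A and 51.9% in WT came from the other cells, as did 53.5% and 44.9% of Cenpa UMIs and 29.3% and 34.7% of Knstrn UMIs, 30.9% and 19.8% of Ndc80 UMIs, 20.7% and 20% of Kif20a UMIs and 18.8% and 17.8% of Mastl UMIs, against 3.58% and 1.65% of Mki67 UMIs. Those cells had 33.2 CPM of Kif23 in I173A and 27.7 CPM in WT (1.20, 1.05 to 1.37), 36.6 and 28.3 CPM of Cenpa (1.29, 1.13 to 1.47), 3.13 and 4.93 CPM of Knstrn (0.634, 0.423 to 0.939), 4.81 and 3.05 CPM of Ndc80 (1.58, 1.06 to 2.35), and 2.67 and 1.36 CPM of Mki67. In CD8 SP the other cells held 23.3% and 11.4% of Kif23 UMIs and 16.9% and 10.1% of Cenpa UMIs. The members' sum in the other cells of the CD4 SP gate was 114 CPM in I173A and 90.3 CPM in WT (1.26, 1.17 to 1.36).

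Kif23 and Cenpa differed in which of these cells held the higher level, and both were found in each kind. In other cells of the CD4 SP gate without a UMI of S1pr1 or Klf2, Kif23 was at 65.5 CPM in I173A and 55.2 CPM in WT, against 10.1 and 11.3 CPM in those with both. Cenpa ran the other way, at 25.6 and 21.4 CPM without S1pr1 and Klf2 and at 47.5 and 31.5 CPM with both. Mki67 was at 0.977 CPM in I173A and 1.44 CPM in WT without them, from only 4 and 6 UMIs. With both it was at 5.23 CPM (3.42 to 7.66) and 1.21 CPM (0.521 to 2.38), from 26 and 8 UMIs. The cells without S1pr1 and Klf2 numbered 736 in I173A and 717 in WT, at medians of 5427 and 5711 UMIs. The cells with both numbered 756 and 971, at medians of 6275.5 and 6417 UMIs.

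Over all DP cells, genes around the set were lower as well. Of the 65 other G2/M genes, 64 were lower in I173A and 63 past 1.5-fold (median log2 ratio −1.33), with Iqgap3 at 2.77 CPM in I173A and 11.1 CPM in WT and Cit at 11.2 and 43.1 CPM at the low end, and Pttg1, the securin, at 53.5 and 48.5 CPM (1.10) the exception. All 56 S phase genes were lower, 42 past 1.5-fold (median −0.84). In CD8 SP 63 of 64 measured other G2/M genes and 56 of 56 S phase genes were lower, 43 and 44 of them past 1.5-fold. In CD4 SP 28 of 42 and 40 of 51 were lower, 0 and 1 past 1.5-fold, that 1 being Dscc1 (4.23 and 6.38 CPM).

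The regulators of these genes were mixed. Of 22, 15 were lower in DP and 9 past 1.5-fold, none higher past 1.5-fold. Over all genes 5.48% were lower and 3.91% higher past 1.5-fold in DP, the reference for each list here. Median log2 ratios in DP were −0.30 for the regulators, −0.07 for the brakes and −0.11 for the APC/C genes, against 0.08 over all genes. Foxm1 was at 15.2 CPM in I173A and 44.6 CPM in WT (0.342, 0.280 to 0.416), E2f7 at 11.3 and 34.1 CPM, and Mybl2, which encodes B-MYB, at 16.6 and 32.1 CPM. In CD8 SP Mybl2 was at 9.02 and 26.8 CPM (0.337) and Foxm1 at 9.98 and 18.1 CPM. Rbl2, the p130 protein of the DREAM complex, was higher in I173A in each gate, at 121 and 95.3 CPM in DP, 44.3 and 34.9 CPM in CD8 SP, and 74.5 and 63.5 CPM in CD4 SP. Of 16 measured brakes on G2/M, 9 were lower in DP, 5 past 1.5-fold, led by Pkmyt1, an inhibitory kinase of Cdk1, at 21.0 and 46.0 CPM, while Btg2, an antiproliferative gene, was at 762 and 634 CPM. Of 16 APC/C genes, 11 were lower in DP and 2 past 1.5-fold, Ube2s at 553 and 878 CPM and Fzr1 at 57.3 and 87.8 CPM, and Anapc16 was at 165 and 120 CPM.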

How the data were processed

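The authors deposited raw UMI counts for each gene and hashtag in each called cell, and the submitters' processing notes name Cell Ranger 6.0.1 and GRCm38 (mm10), and the header of each matrix names software version 3.1.0. The deposited TCR tables list contigs with their UMI counts, and productive ones were joined by barcode. Other upstream filters are not stated.

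Cells were given to a genotype where 1 hashtag reached 10 counts and was 4 times every other one. Of the 66 other G2/M genes listed, 65 were in the files. Hashtag 5 has no genotype in the labels. Cells under 500 genes, or over 10% in mitochondrial UMIs, were dropped. UMIs were summed per genotype and gate and given as CPM. Poisson intervals, conditional intervals of ratios and Clopper-Pearson intervals are at 95%, and cells of 1 sample vary more than these cover. No test was run, with 1 sample per genotype and gate. Called means past 1.5-fold with a mean of at least 5 CPM. No doublet caller was run, and the 1% of cells with the most UMIs were left out as an alternative. The ratio and its interval were tested on simulated counts.

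The members and lists were chosen with earlier results of these data known. All 34 members were to be named, and of other lists up to 4 genes at either end of the ratios in each gate. Scaling alternatives used edgeR 4.0.16 and DESeq2 1.42.0 under R 4.3.3 for library factors only, with Python 3.11.15, numpy 2.4.6, scipy 1.17.1 and pandas 2.3.3. Promoter windows and motifs are from RefSeq (GRCm38.p6). Replicates could not be compared.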

Additional observations from a re-analysis of the deposited data

Results flagged for a closer look

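Cenpa had a lower level in I173A than in WT in the DP gate (ratio 0.490) and the CD8 SP gate (0.854), and a higher one in the CD4 SP gate (1.13), with counting intervals on opposite sides of 1. The difference between gates was not tested, and a gate is 1 library. In the CD4 SP gate 53.5% of Cenpa UMIs in I173A and 44.9% in WT lay in cells with fewer than 3 of the other G2/M genes and fewer than 3 of the S phase genes.

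The members' summed level within cells of 3 or more other G2/M genes was lower in I173A in the DP gate (0.647) and higher in the CD8 SP gate (1.07), and this difference was not tested. Of those cells, 239 of 367 in I173A and 191 of 535 in WT had only 3 or 4 of the genes in the DP gate, and 128 of 326 and 184 of 577 in the CD8 SP gate.

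Cells with hashtag 5 (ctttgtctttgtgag), which the labels tie to no genotype and no comparison used, had a summed level of 732 CPM in the CD4 SP gate, a ratio of 1.12 (1.09 to 1.14) to WT, and 29 of the 34 genes were above WT there. The share of all genes above WT is not given beside that count, so it is not a result about the members. In the DP gate hashtag 5 cells were at 3833 CPM, between 2187 CPM in I173A and 5737 CPM in WT. In the CD8 SP gate they were at 1990 CPM, between 1648 and 2724 CPM.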

How the results depend on the processing

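Each gate has 1 sample per genotype, so no replicate could be left out, and none of the values below has a test. No paired analysis was possible because no genotype has more than 1 sample in a gate. The summed members had a ratio below 1 in the DP and CD8 SP gates under each alternative run, except that without G2/M-high and S-only cells the interval included 1 in both (0.883 to 1.00 and 0.915 to 1.08). In the DP gate the ratio, 0.381 as reported, was 0.362 with TMM factors, 0.359 with DESeq2 size factors, 0.303 per cell, 0.409 without the 1% of cells with the most UMIs, 0.372 in cells thinned to 1500 UMIs, 0.490 without G2/M-high cells of 8 or more genes, and 0.941 without G2/M-high and S-only cells. In the same order the CD8 SP ratio was 0.589, 0.588, 0.497, 0.649, 0.641, 0.473 and 0.994, and 0.621 with a hashtag rule of 5 counts and 2 times. The CD4 SP ratio was 0.900, 0.901, 0.888, 0.792 and 0.906, then above 1 at 1.19 without the cells of 8 or more genes and 1.26 without G2/M-high and S-only cells. It was 0.965 with the looser hashtag rule and 0.964 with 20 counts and 10 times. Per cell, every gene shifts by −0.33 (log2) in DP and −0.28 in CD8 SP.

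Without G2/M-high and S-only cells, 1 member (Cenpf) was lower past 1.5-fold in DP (1.39% of all genes were) and 0 in CD8 SP (0.475%), and the DP median log2 ratio was 0.025. In those DP cells ratios above 1 were found for Ccnb1 (1.26), Cdk1 (1.49), Plk1 (1.34), Cdc20 (1.20), Bub1 (1.61), Bub1b (1.01), Cdca8 (1.15), Cenpa (1.04), Ndc80 (1.19), Nuf2 (1.02), Kif11 (1.06), Kif14 (1.06), Kif20a (1.03), Kif23 (1.38), Nusap1 (1.31), Hmmr (1.23), Ckap2l (1.20) and Anln (1.08). In CD8 SP they were Ccnb2 (1.13), Plk1 (1.83), Mastl (1.31), Cdc20 (1.13), Bub1 (1.52), Bub1b (1.37), Aurkb (1.12), Cdca8 (1.21), Cenpe (1.13), Ndc80 (1.23), Top2a (1.11), Tpx2 (2.49) and Kif20a (1.33). By construction these cells hold few member UMIs. In CD4 SP the members lower past 1.5-fold numbered 1 with no floor on CPM (11.7% of all genes), 5 without the 1% of cells with the most UMIs (0.489%) and 4 after thinning (1.3%).

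The share of G2/M-high cells was lower in I173A in each alternative run in DP and CD8 SP. The DP ratio, 0.626 as reported, was 0.867 with 2 or more genes, 0.339 with 5, 0.314 with 8, 0.540 with thinning to 1000 UMIs and 0.883 without thinning, and the CD8 SP ratio 0.749 with 2 or more genes and 0.840 without thinning. The level within the class was 0.466 with 2 or more genes in DP, 0.851 with 5, 0.824 with 8, 0.710 with 1000 UMIs, 0.454 without thinning, 0.633 with the looser hashtag rule and 0.631 without the 1% of cells. In CD8 SP it was 0.879 with 2 or more genes and 0.722 without thinning, both below 1, and 1.16 with 5, 1.11 with 1000 UMIs, 1.04 with the looser hashtag rule and 1.05 without the 1% of cells. In CD4 SP it was 0.914 with 2 or more genes, 0.922 with 5, 0.948 without thinning and 0.897 without the 1% of cells. The cause was not tested. The threshold of 8 genes and the stage division were chosen after seeing the data.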

Other observations

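Hashtag 5 cells with 8 or more of the other G2/M genes were 8.94% (7.82% to 10.2%) of 2359 cells in the DP gate, 6.28% (5.39% to 7.26%) of 2692 in the CD8 SP gate and 1.73% (1.28% to 2.29%) of 2769 in the CD4 SP gate. The labels give these cells no group.

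Across the 34 genes, the I173A over WT ratio and the share of a gene's UMIs outside cycling cells had a Spearman rho of 0.56 in the DP gate, 0.36 in the CD8 SP gate and 0.11 in the CD4 SP gate. The genes share their libraries and cells and are not independent, so this is a description with no test. Both values also come from the same UMIs. In the other cells the summed members were near WT (0.941 in DP, 0.994 in CD8 SP). A gene with more UMIs there thus has a whole-gate ratio nearer 1 by arithmetic, and a positive rho in these 2 gates is partly built in.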
